A study of Mus musculus with 9 samples.

Results

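The genes described here are 10 genes of major histocompatibility complex (MHC) class I antigen presentation, chosen by symbol from 56263 genes with values in the lung expression table: H2-K1, H2-D1, B2m, Tap1, Tap2, Tapbp, Psmb8, Psmb9, Psmb10 and Nlrc5. Each symbol named 1 row, and all 10 were among the 16080 genes tested, with a level above 1 TPM (transcripts per 1e6 transcripts) in every library. Class I molecules show peptides from inside the cell to CD8 T cells. Proteasomes cut proteins into peptides, the Tap1 and Tap2 transporter carries the peptides into the endoplasmic reticulum, and tapasin (Tapbp) helps to load them onto a heavy chain (H2-K1 or H2-D1) paired with beta-2 microglobulin (B2m). Interferon gamma is known to raise this pathway, in part through the transactivator Nlrc5, and to replace the constitutive proteasome subunits Psmb5, Psmb6 and Psmb7 by Psmb8, Psmb9 and Psmb10, which form the immunoproteasome.

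RNA of whole lung was sequenced from wild-type male BALB/c mice, bought at 6 to 8 weeks of age, in 3 groups of 3 libraries. The QJHTD group received lipopolysaccharide (LPS), cigarette smoke and Qingjin Huatan decoction, a multi-herb preparation given by gavage at the highest of the study's doses. The Model group received LPS and smoke with vehicle, and serves as a model of chronic obstructive pulmonary disease (COPD). The Control group received vehicle without LPS or smoke. LPS (20 µg per mouse) was instilled into the trachea on days 1 and 14 of a 42-day experiment, and smoke came from 6 cigarettes, 3 times daily for 30 min each. The labels do not say whether the libraries came from separate mice, so p-values measure the spread between these libraries only. The deposited values carry no read counts, and the depth of the libraries is unknown.

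Antigen receptor and immunoglobulin segments took 36.2% to 43.7% of all TPM in the QJHTD and Model libraries and 0.296% to 0.605% in the Control libraries. TPM sum to a fixed total. The median log2 fold change over all genes tested was -0.47 for Model against Control as deposited, and 0.08 when TPM were recomputed without the segments, hemoglobin genes and mitochondrial genes. Rescaling each library by its median ratio to the others (median-ratio rescaling) centres the typical gene near 0 by construction. Among all genes 2674 rose and 9079 fell in Model against Control, and 4976 rose and 4753 fell after that rescaling. The marker list of leukocytes, 4 of 4 genes higher in Model than in Control, summed to 604 to 668 TPM in QJHTD, 630 to 678 TPM in Model and 147 to 203 TPM in Control, with no marker at 0. The lists of neutrophils and of monocytes and macrophages were each higher in 6 of 6 genes. The list of endothelium, 6 of 6 genes lower in Model, summed to 197 to 248 TPM in QJHTD, 175 to 188 TPM in Model and 1028 to 1163 TPM in Control. In whole lung, a change in the number of cells of a type and a change in RNA per cell cannot be told apart, and the part of these cell markers in the results below was not tested.

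Of the genes, 7 lie in or near the MHC on chromosome 17 (GENCODE M21, GRCm38). Psmb9, Tap1, Psmb8 and Tap2 follow each other within 34335 bases (chr17:34181987-34216321). Tapbp (chr17:33915899-33929292) and H2-K1 (chr17:33996017-34000347) lie before it and H2-D1 (chr17:35262730-35267499) after it. B2m is on chromosome 2 (122147686-122153083), and Nlrc5 (94434356-94527272) and Psmb10 (105935735-105938444) are on chromosome 8. RefSeq promoter windows (GRCm38.p6) matched 8 of the 10 genes, and Tap2 and Nlrc5 had none. The sequences below are shown because H2-K1, H2-D1 and B2m supply the 2 chains of one complex and were the most abundant of the genes. Capitals mark letters matching GAAANNGAA (an interferon-stimulated response element, ISRE), GGGNNTTCC or GGNNTTTCC (kappaB), TGACG (the core of the X2 box) and CCAAT, each searched on both strands in the 250 bases before the start.
H2-K1, chr17:34000348-34000478, minus strand, upstream of the transcript: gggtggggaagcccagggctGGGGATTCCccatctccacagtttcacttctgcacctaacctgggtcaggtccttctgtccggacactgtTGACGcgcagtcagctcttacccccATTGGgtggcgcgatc
B2m, chr2:122147537-122147646, plus strand, upstream of the transcript and outside the exons of Patl2, which overlaps it: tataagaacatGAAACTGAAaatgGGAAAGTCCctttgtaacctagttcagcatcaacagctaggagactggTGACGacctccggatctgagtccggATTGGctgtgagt
The kappaB site of H2-K1 and that of H2-D1 were then compared over 30 bases.
H2-K1, chr17:34000439-34000468, minus strand: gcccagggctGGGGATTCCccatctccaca
H2-D1, chr17:35262913-35262942, plus strand, inside a 5′ untranslated exon of a longer GENCODE model: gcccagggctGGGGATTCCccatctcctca
Over 131 bases upstream the H2-K1 and H2-D1 stretches were identical at 118 (90.1%). Psmb8 held 1 match to TTCNNNGAA, the gamma-activated sequence (GAS), shown with 30 bases.
Psmb8, chr17:34198088-34198117, plus strand, also in a 5′ untranslated exon of a longer model: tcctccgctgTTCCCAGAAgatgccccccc
Of 32851 promoter windows, 7.13% held the ISRE letters, 7.02% the GAS letters, 8.36% a kappaB match, 17.8% TGACG and 33.8% CCAAT. A match describes the letters only. Other spellings of these elements were not searched, so lower-case letters do not show that a site is absent.

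The class I chains were among the most abundant transcripts of the lung and were higher after LPS and smoke. H2-K1 had 3458, 3310 and 3375 TPM in Model and 1744, 1616 and 1787 TPM in Control. H2-D1 had 2380, 2323 and 1965 TPM in Model and 872, 915 and 954 TPM in Control. B2m, the light chain, had 3219, 3227 and 3140 TPM in Model and 1129, 1095 and 1259 TPM in Control. Every Model library lay above every Control library for these 3 genes, and together they held 0.88% ± 0.0293 of all TPM in Model and 0.379% ± 0.0191 in Control (SD, n = 3 each). The log2 fold change, on the scale of log2(TPM + 1), was 0.98 ± 0.19 for H2-K1, 1.28 ± 0.19 for H2-D1 and 1.46 ± 0.18 for B2m (SE; limma, Benjamini-Hochberg adjusted p = 0.0013, 0.000312 and 9.18e-05). H2-K1 and H2-D1 are paralogs with 91.5% identity over 1077 aligned coding bases. Of the 50-base windows of the H2-K1 transcript, 6.94% also occur in H2-D1 and 8.79% in any other gene. Of the H2-D1 windows, 14.3% occur in other genes, with more in H2-Q1, H2-Q7 and H2-Q6 each than in H2-K1. BALB/c mice carry other alleles of H2-K1 and H2-D1 than the reference strain, and how the authors' assignment of reads treats them was not tested. Quantile normalization took H2-K1 to 0.02 (adjusted p = 0.94) and left H2-D1 at 0.66 and B2m at 0.67, both past the threshold.

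**Figure D1:**
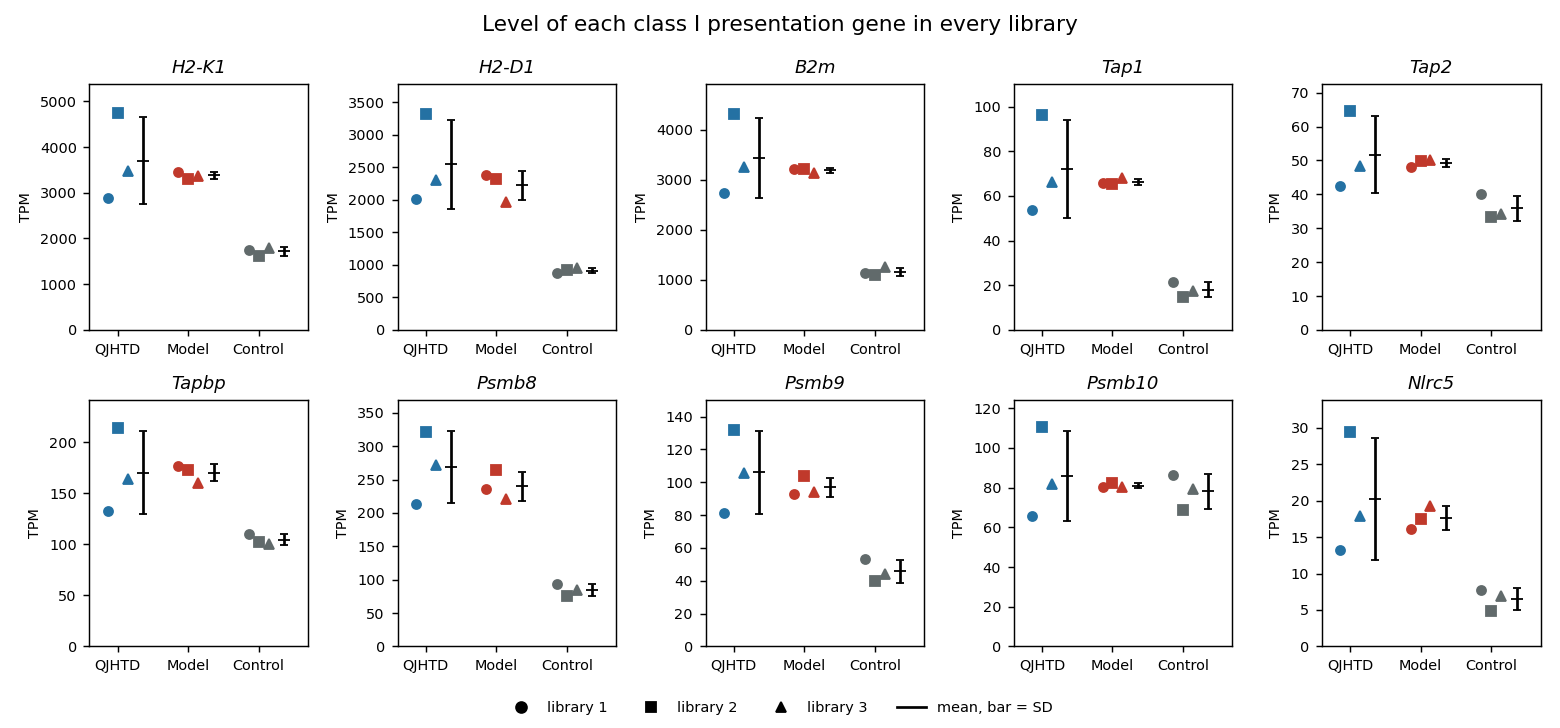
TPM of each of the 10 genes (1 panel each, linear axis from 0) in the QJHTD, Model and Control groups; symbols are libraries 1 to 3 and the bar is mean ± SD. For 9 genes the Model points lie above all Control points, and for Psmb10 Model (80.2 to 82.3 TPM) lies within the Control range (68.7 to 86.5 TPM).

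The peptide transporter genes did not change alike. Tap1 had 65.6, 65.6 and 68.0 TPM in Model and 21.5, 14.95 and 17.6 TPM in Control. Tap2 had 48.1, 49.8 and 50.1 TPM in Model and 40.1, 33.3 and 34.2 TPM in Control. The Model libraries were higher than every Control library for both genes. Tap1 rose by 1.84 ± 0.20 on the log2 scale (adjusted p = 5.07e-05, limma) and Tap2 by 0.45 ± 0.14 (adjusted p = 0.0189). The Tap2 call was lost without Control 2 (0.40, adjusted p = 0.0602) and without Control 3 (0.42, adjusted p = 0.0557), and with no filter on low values (0.45, adjusted p = 0.0924). Tapbp, the loading chaperone, had 177, 173 and 160 TPM in Model and 110, 103 and 100 TPM in Control, and rose by 0.70 ± 0.15 (adjusted p = 0.00285). Tap1 and Psmb9 overlap by 212 bases on opposite strands, their RefSeq starts lie 225 bases apart, and reads of the overlap cannot be assigned without strand, which is not stated for the counting. B2m lies wholly inside Patl2 and Psmb10 inside the antisense gene Gm16156, both on the opposite strand, with the same limit. Psmb8 shares 2139 bases with the antisense gene Gm20496, and Tap2 shares 1923 bases with Gm20496 and 3148 with Gm15821, all on the opposite strand. Tapbp shares 3422 bases with Zbtb22 on the same strand, where strand would not separate the reads.

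Of the immunoproteasome subunits, Psmb8 and Psmb9 rose and Psmb10 did not pass the test. Psmb8 had 235, 264 and 221 TPM in Model and 93.4, 75.7 and 84.4 TPM in Control (log2 fold change 1.50 ± 0.15, adjusted p = 3.52e-05, limma). Psmb9 had 93.1, 104 and 94.1 TPM in Model and 53.1, 39.7 and 44.3 TPM in Control (log2 fold change 1.08 ± 0.17, adjusted p = 0.000476). Psmb10 had 80.4, 82.3 and 80.2 TPM in Model and 86.5, 68.7 and 79.1 TPM in Control. The Psmb10 value was 0.06, with a 95% interval of -0.33 to 0.44 (adjusted p = 0.771), and it passed after median-ratio rescaling (0.60, adjusted p = 0.00793) and once the segments and the hemoglobin and mitochondrial genes were taken out and TPM recomputed (0.70, adjusted p = 0.00311). The constitutive partners did not pass in the fit of all libraries: Psmb5 was at -0.26, Psmb6 at -0.19 and Psmb7 at -0.11, and all 3 turned positive and passed under those rescalings (0.29, 0.36 and 0.43 after median-ratio rescaling), while Psmb6 passed as lower under quantile normalization (-0.34). At the same fold changes, Psmb5 passed as lower with only Model and Control in the fit (adjusted p = 0.025) or without QJHTD 3 (adjusted p = 0.0177), and Psmb6 without QJHTD 1 (adjusted p = 0.0399). Nlrc5, the transactivator of class I genes, had 16.1, 17.5 and 19.3 TPM in Model and 7.79, 4.83 and 6.95 TPM in Control, and rose by 1.32 ± 0.26 (adjusted p = 0.0016).

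In all, 9 of the 10 genes rose and 0 fell in Model against Control, where 16.6% of all genes tested rose and 56.5% fell. In those 9 genes every Model library lay above every Control library, as in 17.3% of all genes tested. The median log2 fold change of the 10 genes was 1.18. In QJHTD against Control 9 of the 10 rose, where 17.0% of all genes did, and Psmb10 did not pass (0.11, adjusted p = 0.581, limma). The 2 comparisons share the Control libraries.

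**Figure D2:**
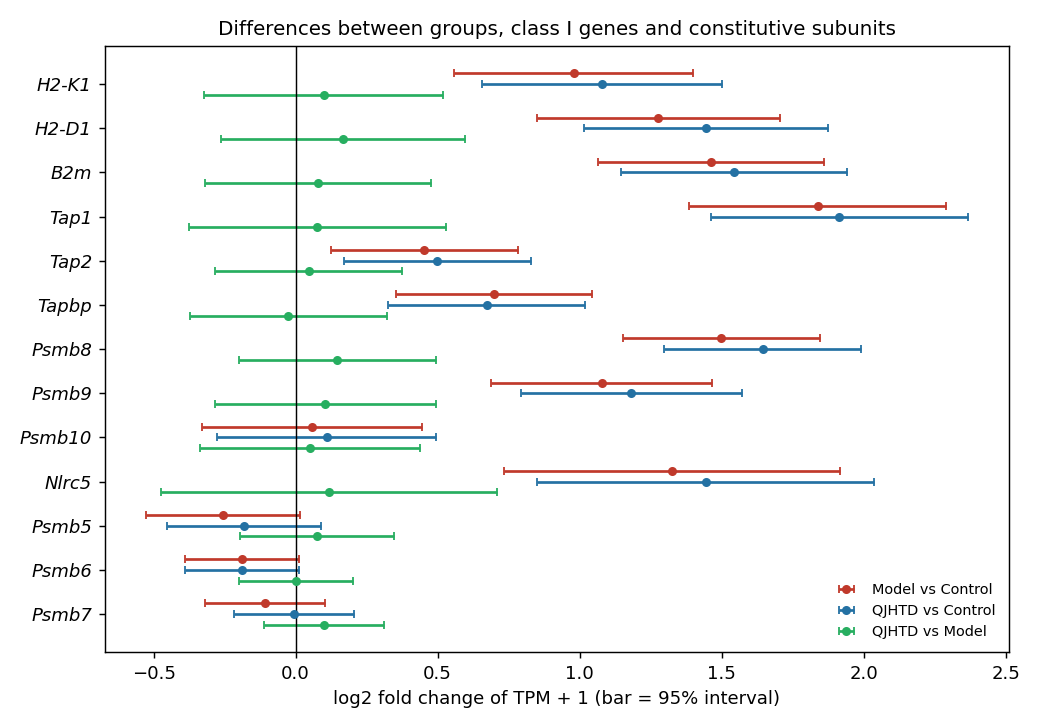
Log2 fold change of TPM + 1 for the 10 genes and the 3 constitutive subunits (rows), with 95% intervals, in Model against Control, QJHTD against Control and QJHTD against Model. Tap1 lies highest at 1.84 in Model against Control, and every QJHTD against Model interval spans 0.

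A ratio of 2 genes within a library does not depend on the total of that library. Psmb8/Psmb5 was 2.67, 3.28 and 2.73 in Model and 0.893, 0.791 and 0.856 in Control. Psmb9/Psmb6 was 0.587, 0.694 and 0.614 in Model and 0.296, 0.229 and 0.256 in Control. Psmb10/Psmb7 was 0.996, 1.14 and 1.12 in Model and 1.07, 0.887 and 0.939 in Control, so only the first 2 pairs of the 3 separated the groups. Tap2/Tap1 was 0.732, 0.759 and 0.737 in Model and 1.86, 2.22 and 1.95 in Control. (H2-K1 + H2-D1)/B2m was 1.81, 1.75 and 1.70 in Model and 2.32, 2.31 and 2.18 in Control. With 3 against 3 libraries the smallest 2-sided exact permutation p is 0.1, which 4 of the 5 ratios reached. Over the diagnosis label, the 6 libraries labelled COPD (QJHTD and Model) against the 3 labelled Normal, these 4 ratios had p = 0.0238 (exact permutation test, 2-sided, the smallest this design allows; adjusted over 5 ratios, 0.0298). The log2 difference was 1.80 for Psmb8/Psmb5, 1.34 for Psmb9/Psmb6, -1.45 for Tap2/Tap1 and -0.35 for (H2-K1 + H2-D1)/B2m, and 0.14 for Psmb10/Psmb7 (exact p = 0.31).

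In QJHTD, Psmb8/Psmb5 was 2.76, 3.92 and 2.56 and Tap2/Tap1 was 0.787, 0.67 and 0.73, and each of the 5 ratios overlapped between QJHTD and Model (exact permutation p of 0.4 to 0.8).

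**Figure D3:**
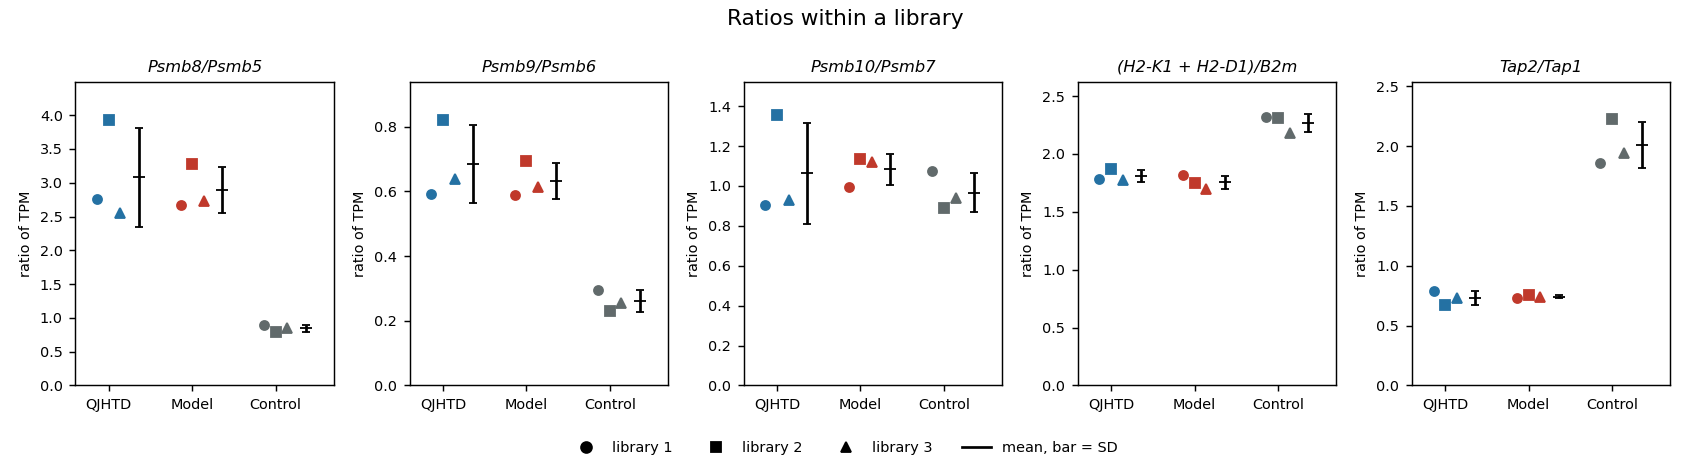
The 5 ratios of TPM within a library (linear axis from 0) in the QJHTD, Model and Control groups; symbols are libraries 1 to 3 and the bar is mean ± SD. Psmb8/Psmb5 averaged 3.08 in QJHTD, 2.89 in Model and 0.847 in Control, and Psmb10/Psmb7 overlapped between all 3 groups.

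Between QJHTD and Model, 0 of the 10 genes passed the test, where 0.0124% of all genes tested did; 0 of 10 also had an unadjusted p under 0.05, against 1100 of 16080 genes. The log2 fold changes ran from -0.03 (Tapbp) to 0.17 (H2-D1). No gene separated the groups, where the libraries of 12.3% of all genes tested did not overlap in one or the other direction. For B2m the QJHTD libraries had 2741, 4317 and 3258 TPM and the Model libraries 3219, 3227 and 3140 TPM. The B2m fold change was 1.06, with a 95% interval of 0.803 to 1.39, and that of Nlrc5 was 1.09, with an interval of 0.72 to 1.64. These intervals rest on a spread pooled over the 3 groups, as does each SE given for Model against Control. Differences of that size in either direction could not be told from the pooled spread, to which the QJHTD libraries contributed.

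The spread of the QJHTD libraries had one order in all 10 genes. QJHTD 1 was the lowest and QJHTD 2 the highest of the QJHTD libraries in 10 of 10 genes, an order that 29.0% of all genes tested showed. Taken singly, QJHTD 1 was the lowest of the 3 in 59.0% of all genes tested, and QJHTD 2 the highest in 43.6%. QJHTD 2 was also the highest of all 9 libraries in 10 of 10 genes, against 7.66% of all genes, and QJHTD 1 the lowest of the 6 exposed libraries in 9 of 10, against 21.3%. The genes were not independent of each other. H2-K1 had 2892, 4742 and 3466 TPM in QJHTD 1, 2 and 3, Tap1 had 53.8, 96.2 and 66.3 TPM, Psmb10 had 65.5, 110 and 81.7 TPM and Nlrc5 had 13.2, 29.5 and 17.9 TPM. The QJHTD 2 level was 1.51 (Psmb8) to 2.23 (Nlrc5) times that of QJHTD 1, and 1.06 (Psmb5) to 1.17 (Psmb6) times for the constitutive subunits. The coefficient of variation of H2-K1 was 25.6% in QJHTD and 2.21% in Model.

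**Figure D4:**
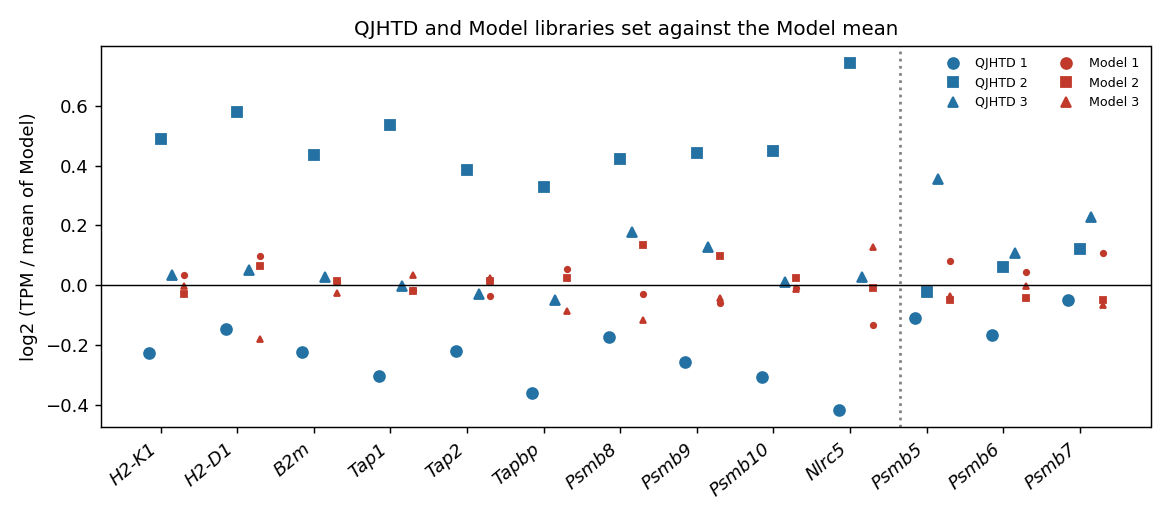
Log2 of TPM over the Model mean for each QJHTD library (large blue symbols) and each Model library (small red symbols), by gene; the dotted line sets off the constitutive subunits. QJHTD 2 is highest and QJHTD 1 lowest of the QJHTD libraries in each of the 10 genes, and QJHTD 3 is highest for Psmb5, Psmb6 and Psmb7.

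Several marker lists showed the same order. Of 14 lists, 6 had their lowest summed TPM of the QJHTD libraries in QJHTD 1 and their highest in QJHTD 2: dendritic, T, NK and cytotoxic, alveolar type 2, club and ciliated cells. Of all genes tested, 29.0% showed this order. A sum is led by its most abundant genes. By mean log2(TPM + 1), alveolar type 2 cells were at 8.73, 8.88 and 8.70 in QJHTD 1, 2 and 3, lowest in QJHTD 3. B cells, at 4.69, 5.03 and 4.94, had the order by that measure. T cell markers summed to 63.3, 91.0 and 81.6 TPM in QJHTD 1, 2 and 3, and ciliated-cell markers to 126, 214 and 198 TPM. The 7 markers of NK and cytotoxic cells summed to 20.9, 78.6 and 30.2 TPM in QJHTD 1, 2 and 3, to 22.7 to 25.6 TPM in Model and to 26.0 to 43.8 TPM in Control, and 0 of the 6 genes tested passed between QJHTD and Model. The granzyme genes Gzma (25.5 TPM) and Gzmb (33.8 TPM) made up most of the QJHTD 2 sum, and the NK marker Klrb1c, with 1.38, 2.35 and 0.61 TPM in QJHTD 1, 2 and 3, was lowest in QJHTD 3. The mean log2(TPM + 1) of the 19 interferon gamma targets was 4.20, 5.50 and 4.76 in QJHTD 1, 2 and 3 and 4.85 to 4.94 in Model. Ifng, the gene of interferon gamma and below the filter, was listed at 0.52, 1.31 and 0.81 TPM in QJHTD 1, 2 and 3, at 0.70, 0.82 and 0.72 TPM in Model and at 0.21, 0.34 and 0.10 TPM in Control. The part of these markers in the order of the libraries was not tested.

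The other genes of the pathway moved unevenly in Model against Control. Of 19 interferon gamma targets 16 rose and 0 fell, with a median log2 fold change of 1.96: Cd274, the ligand of the PD-1 receptor, had 48.4, 42.8 and 47.3 TPM in Model and 5.44, 5.08 and 5.18 TPM in Control (2.92, adjusted p = 9.87e-07, limma), and Cxcl9, a chemokine for T cells, rose by 2.96. Of 16 tested nonclassical and class I-like genes of 22 listed, 11 rose, H2-Q7 by 1.67 and H2-Q6 by 1.47. The neonatal Fc receptor Fcgrt (-0.75), the iron regulator Hfe (-0.81) and Mr1 (-0.51), which presents vitamin metabolites, fell; after median-ratio rescaling none of the 3 passed (-0.22, -0.32 and -0.0049). Of 10 peptide loading and trimming genes 4 rose, among them Sec61a1 (0.73), Calr (0.44) and Tapbpl (0.43), and 2 fell, the aminopeptidase Lnpep (-1.06) and the chaperone Canx (-0.36), which was at 0.18 after median-ratio rescaling. As deposited 16.6% of all genes tested rose and 56.5% fell. After that rescaling 8 of the 10 rose and 1 fell, beside 4976 of 16080 genes that rose and 4753 that fell.

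Among the regulators, Irf8, a transcription factor of myeloid cells, rose by 0.72. Of the RFX complex that binds class I promoters, the subunits Rfxap (-1.10) and Rfxank (-0.96) fell. Rfx5 was at -0.06 (adjusted p = 0.796, limma). These are values as deposited, where 56.5% of all genes tested fell. Of 10 interferon receptor and signalling genes tested 7 rose and 0 fell, and the 4 ligand genes of the list were below the filter. Those that rose included Socs3 (2.67), Ifngr2 (0.92) and Jak2 (0.74). Of 11 class II genes 4 rose, led by the protease Ctss (3.30) and Cd74 (0.71), against 16.6% of all genes. After median-ratio rescaling 9 of the 11 rose, beside 4976 of all 16080 genes tested. In a list of CD8, NK and other immune receptor genes, 4 of the 12 tested rose, Pirb by 3.05 and Lilrb4a by 2.84. Ncr1, an activating NK receptor, fell by 1.49. In QJHTD against Model 0 genes of these lists passed.

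The shared proteasome subunits are given beside Psmb8 and Psmb9. Their counts of genes that fell as deposited stood near the 56.5% of all genes tested. After median-ratio rescaling 4976 of all 16080 genes tested rose and 4753 fell. Of 11 other 20S core subunits 0 rose and 7 fell in Model against Control as deposited, and 8 rose and 0 fell after median-ratio rescaling. Of 18 subunits of the 19S particle 2 rose, Psmd8 and Psmd14 (0.41 each), and 12 fell, and 8 rose and 0 fell after that rescaling. Of 8 activator and assembly genes 0 rose and 4 fell, among them the assembly factors Pomp (-0.55) and Psmg1 (-0.62), and 4 rose and 0 fell after rescaling. The medians of the 20S and 19S lists were -0.31 and -0.30 as deposited and 0.23 for both after rescaling. Psmb8 was at 1.50 and Psmb9 at 1.08 as deposited. Over the 18 alternatives tried, the lowest value was above 1.4 for Psmb8 and 0.98 for Psmb9.

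**Figure D5:**
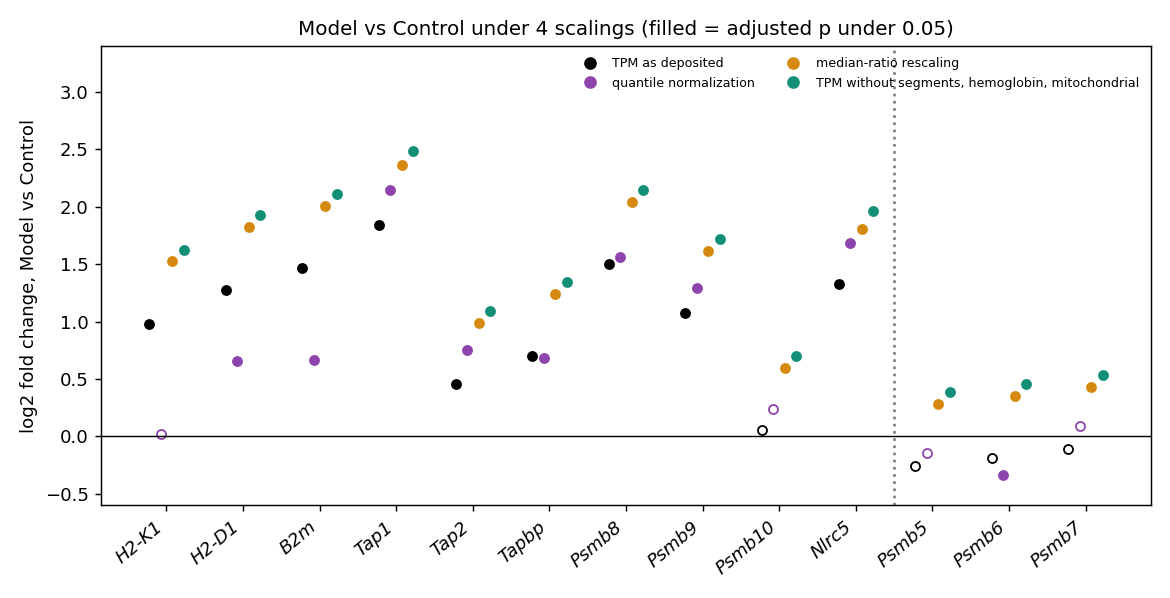
Log2 fold change of Model against Control for the 10 genes and the 3 constitutive subunits under 4 scalings (filled points, adjusted p under 0.05). Tap1, Psmb8 and Nlrc5 pass under each, H2-K1 does not pass under quantile normalization (0.02), and Psmb5, Psmb6 and Psmb7 change sign between the deposited TPM and the 2 rescalings.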

How the data were processed

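The deposited table holds TPM per gene and library, made by the authors with fastp and RSEM per the labels; their versions were not found in the labels or methods. The labels name the build GRCh38.p6, a human name, while the IDs are mouse genes, 55140 of 55486 of which were found in GENCODE M21. The authors' mean TPM columns and the gene length column (other) were not used, and 0 columns belonged to no sample. TPM of at least 1 in at least 3 libraries was required, log2(TPM + 1) was fitted in limma 3.58.1 (R 4.3.3) with an intensity trend and all 3 groups, without a replicate block, and p-values were adjusted by Benjamini-Hochberg over 16080 genes. Ratios were tested with exact permutation (scipy 1.17.1). The fit was tested on simulated data. The genes and lists were chosen with earlier results of these data known. Named were the 10 genes, Psmb5, Psmb6 and Psmb7, and of each list up to 4 genes with the smallest p in Model against Control and any that moved against its majority; Ifng, Rfx5, Gzma, Gzmb and Klrb1c were added after their values were seen, and a result on the regulators is not reported here. Alternatives covered the pseudocount, filter, scaling, groups fitted, trend, replicate block and each library left out.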

Additional observations from a re-analysis of the deposited data

How the results depend on the processing

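The counts of the 10 genes that rose were 8 to 10 in Model against Control and in QJHTD against Control under 18 alternatives, and 0 passed in QJHTD against Model. Leaving out Model 2 and QJHTD 1 together, lowest in ciliated-cell markers and chosen after seeing the data, gave 9 and 9. The replicate block gave 9 in both, with Tap2 at an adjusted p of 0.0334 in Model against Control; same-numbered libraries correlated at -0.10 to 0.09, so the numbers were not taken to pair samples, and the block changed no call. In QJHTD against Control, Tap2 did not pass with no filter (adjusted p = 0.0677), H2-K1 was 0.15 under quantile normalization (adjusted p = 0.535), and Psmb10 passed after median-ratio rescaling (0.60) and without segments, hemoglobin and mitochondrial genes (0.76). Psmb5, Psmb6 and Psmb7 changed sign in Model against Control after median-ratio rescaling (0.29, 0.36 and 0.43) and without those classes (0.39, 0.46 and 0.53), and in QJHTD against Control (0.31, 0.31 and 0.49, then 0.47, 0.47 and 0.65), Psmb7 also under quantile normalization (0.18); the cause was not tested. With 1 Control library left out, 6 against 2 libraries allow no exact permutation p below 0.0714, and the 4 ratios that passed by diagnosis label then had an adjusted p of 0.0893. The ratios by diagnosis label, with each library left out in turn, ranged from -0.38 to -0.33 for (H2-K1 + H2-D1)/B2m, 0.07 to 0.22 for Psmb10/Psmb7, 1.72 to 1.85 for Psmb8/Psmb5, 1.25 to 1.43 for Psmb9/Psmb6, -1.50 to -1.37 for Tap2/Tap1. Depth is unknown.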
